A study of Mus musculus with 11 samples.

Results

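The pore-forming alpha1 subunits of the voltage-gated calcium channels were followed through RNA sequencing of mPFC CRF1+ neurons, the cells of the mouse medial prefrontal cortex that carry the type-1 receptor for corticotropin-releasing factor. Cacna1a, Cacna1b, Cacna1c, Cacna1d, Cacna1e, Cacna1g, Cacna1h and Cacna1i were chosen by name, as 8 of the 53465 genes in the count files, and were grouped by the L, P/Q, N, R or T type of current their channels carry. The GFP-labelled cells were sorted from adult male CRF1:GFP reporter mice, and each library held the sorted cells of 1 mouse. The 5 withdrawn mice had inhaled ethanol vapor in repeated cycles, with ethanol and pyrazole injected to raise and hold its level, and had then spent days in forced abstinence. The 6 naïve mice stayed in chambers with air and were given pyrazole as well, so that pyrazole was common to both groups. The comparison asks whether the transcripts of these channels differ between cells from withdrawn and from naïve mice.

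Mice were placed by title and treatment. The source name of 3 withdrawn mice (mice 3, 4 and 5) says control instead, and the design description swaps the sizes of the groups. The naïve libraries held 9970161 to 17855514 counts on genes and the withdrawn libraries 7351567 to 22244869, so that 3 counts were worth 0.135 to 0.408 CPM, a count scaled to the TMM-normalized library size. Such a floor covers counting error only, since the reads came from amplified cDNA. Crhr1, the gene of the sorted receptor, lay between 69.1 and 119 CPM in naïve and between 42.2 and 136 CPM in withdrawn mice, and Slc17a7, which marks glutamatergic neurons, between 896 and 1928 CPM and between 738 and 1797 CPM. The 7 glutamatergic markers summed to 2878 to 4377 CPM and 1874 to 4025 CPM, with 1 higher and 6 lower in withdrawn mice. Their lowest sum was that of withdrawn mouse 4. Gad2, which marks GABAergic neurons, was present at 11.9 to 62.4 CPM and 7.52 to 130.1 CPM. The 9 GABAergic markers summed to 77.3 to 942 CPM and 31.1 to 773 CPM, with 7 higher and 2 lower in withdrawn mice. Sst, 1 of the lower, ran from 0.0677 to 699 CPM in naïve and from 0 to 32.6 CPM in withdrawn mice. Its log2 fold change was -5.33 (unadjusted p = 0.0221, adjusted p = 0.545 by edgeR). Several libraries stood apart. Naïve mouse 5 had the fewest genes with a count (15585, against at least 22551 in the others) and the lowest share of reads outside exons (5.77%), while withdrawn mice 2 and 4 had the highest (39.6% and 48.1%). The summed level of 10 fibroblast marker genes was 15.3 to 84.5 CPM in naïve mice and 1651, 40.4, 895, 1410 and 331 CPM in withdrawn mice 1 to 5. Of the 8 markers tested all were higher in withdrawn mice. At an unadjusted p under 0.05 by edgeR 7 were higher, as were 5% of all genes tested. The untested Lum and Igf2 had lower means in withdrawn mice, 0.910 against 1.36 CPM and 0.0916 against 0.468 CPM. Astrocyte markers summed to 32.0 to 180 CPM and 28.8 to 746 CPM, with 3 of the 6 tested higher (Gja1, Gjb6 and S100b) and 3 lower (Aqp4, Aldh1l1 and Slc1a3), and endothelial markers to 3.18 to 767 CPM and 39.3 to 627 CPM. In such bulk samples, fewer cells of a type and less RNA per cell cannot be told apart.

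Voltage-gated calcium channels open when the membrane is depolarized and let calcium into the cell, where it triggers transmitter release, shapes firing and reaches the nucleus as a signal for transcription. The alpha1 protein forms the pore from linked repeats, each with a voltage sensor and a pore loop, and its gene sets the type of current. L, P/Q, N and R type channels need strong depolarization and are assembled with beta and alpha2delta subunits, whereas T type channels open near rest and support burst firing. In cortical neurons L type channels sit mainly on the soma and dendrites, and P/Q and N type channels drive release from axon terminals.

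The feature that most plainly divides the members is written in the pore loops themselves. Calcium is selected by a ring of acidic residues, one from each repeat, and the loop of repeat III is shown because its codon separates the T type members from the rest. Each window holds 27 bases of coding exon, read 5′ to 3′ on the strand of the gene from GENCODE M21 transcripts on GRCm38, and its capitals mark the codon of the acidic residue, the 7th of 9 codons.
Cacna1c: ttcaccgtctccaccttcGAAgggtgg
Cacna1d: ttcacagtctcaacttttGAGggctgg
Cacna1a: ttcacagtgtccacaggaGAGggctgg
Cacna1b: ttcacagtgtccacgggaGAGgggtgg
Cacna1e: ttcacagtctctacagggGAAggatgg
Cacna1g: tttgtgctggcctccaagGATggctgg
Cacna1h: ttcgtgctgtcatccaagGATggctgg
Cacna1i: tttgtcttggcctccaagGATggctgg
The 5 L, P/Q, N and R type members carry a glutamate codon here, and the 3 T type members an aspartate codon. The same split of 5 against 3 was found in repeat IV, and in repeats I and II all 8 members carry glutamate. Each window lies within a single exon. Those of the L type genes are at chr6:118656118-118656144 (minus strand, Cacna1c) and chr14:30100702-30100728 (minus strand, Cacna1d). Those of the P/Q, N and R type genes are at chr8:84581320-84581346 (plus strand, Cacna1a), chr2:24651086-24651112 (minus strand, Cacna1b) and chr1:154444877-154444903 (minus strand, Cacna1e). Those of the T type genes are at chr11:94426465-94426491 (minus strand, Cacna1g), chr17:25383502-25383528 (minus strand, Cacna1h) and chr15:80376789-80376815 (plus strand, Cacna1i). Despite this likeness of sequence, no run of 75 bases was shared between the annotated transcripts of any pair of members, so reads of that length that match exactly are not split among them.

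All 8 alpha1 genes were expressed, and no difference between withdrawn and naïve mice passed the test. Every member passed the filter on low counts, and in each case the ranges of the groups overlapped, where 0.948% of the 17093 genes tested did not. In edgeR's quasi-likelihood test, 0 members were called (Benjamini-Hochberg adjusted p no higher than 0.05, with the log2 fold change past 0.6 either way), as 0.00585% of tested genes were. None had an unadjusted p under 0.05 either, against 7.22% of tested genes. DESeq2's Wald test called 0 members, and 0 at an unadjusted p under 0.05, against 0.887% and 6.24% of the genes it tested. In withdrawn mice 4 members were higher (Cacna1b, Cacna1d, Cacna1g and Cacna1i) and 4 lower (Cacna1a, Cacna1c, Cacna1e and Cacna1h), with a median log2 fold change of -0.019 over the members and 0.021 over all tested genes. The members were measured more tightly than most genes, with a median standard error of 0.245 against 0.439 over all tested genes on the log2 scale. For 7 of the 8, all but Cacna1h, the 95% interval lay within 1 log2 unit of no difference.

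**Figure D1:**
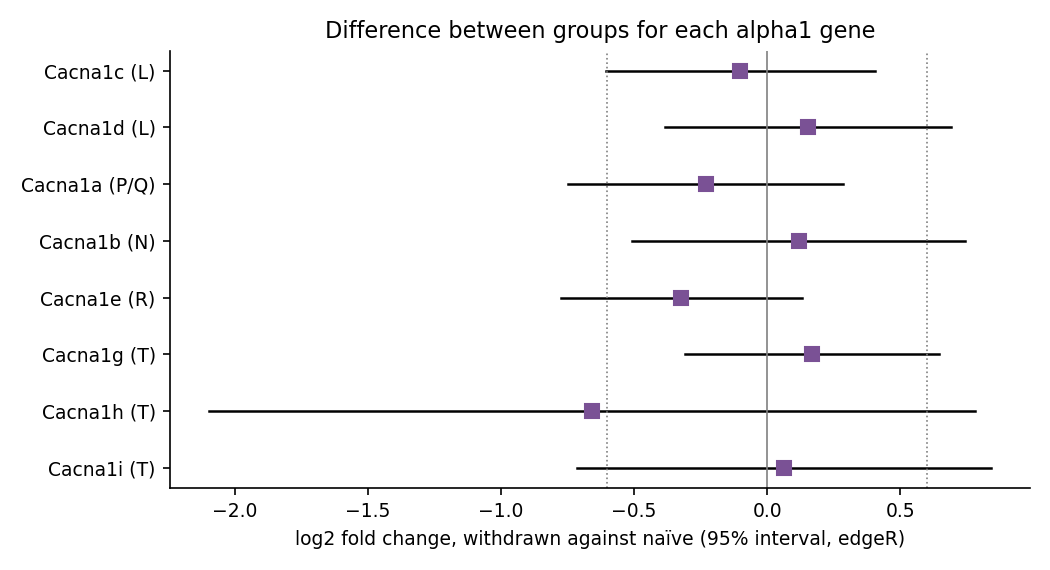
Log2 fold change of each alpha1 gene in withdrawn against naïve mice (squares) with its 95% interval from edgeR (lines), for 6 naïve and 5 withdrawn mice. The dotted lines mark the threshold of 0.6 in either direction. All 8 intervals cross 0, and that of Cacna1h is the widest, from -2.09 to 0.78.

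The L type genes were near to level between the groups. Cacna1c (ENSMUSG00000051331, chr6:118587240-119196418, minus strand) encodes Cav1.2, the main L type channel of the brain, which links depolarization to gene transcription. It had 27.4, 44.8 and 53.4 CPM in the lowest, median and highest naïve mouse, and 45.1, 49.2, 32.9, 29.1 and 36.7 CPM in withdrawn mice 1 to 5. All 5 withdrawn mice lay inside the naïve range. The mean was 41.4 ± 9.96 CPM in naïve mice (SD, n = 6) and 38.6 ± 8.39 CPM in withdrawn mice (SD, n = 5), and the log2 fold change was -0.10 (SE 0.23, 95% interval -0.60 to 0.40, adjusted p = 0.966 by edgeR). Without the 3 mice with conflicting labels its sign turned, to 0.13. Cacna1d (ENSMUSG00000015968, chr14:30039939-30491455, minus strand) encodes Cav1.3, an L type channel that opens at more negative voltages and supports pacemaking. It had 20.1, 25.1 and 37.6 CPM in the lowest, median and highest naïve mouse, and 31.5, 33.6, 37.3, 20.8 and 26.9 CPM in withdrawn mice 1 to 5. Again all 5 withdrawn mice lay inside the naïve range, 4 of them above its median. The log2 fold change was 0.15 (SE 0.25, 95% interval -0.38 to 0.69, adjusted p = 0.949 by edgeR), and it stayed above 0 under each of 24 alternatives. Exons of Chdh on the other strand cover 589 bases of Cacna1d, and runs shared with Chdh made up 3.95% of the 75-base runs in its transcripts, so part of its count is uncertain.

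Neither gene for the channels of axon terminals passed the test, with log2 fold changes of -0.23 for the P/Q type and 0.12 for the N type gene. Cacna1a (ENSMUSG00000034656, chr8:84388440-84640246, plus strand) encodes Cav2.1, the P/Q type channel that triggers release at many central synapses. The lowest, median and highest naïve mouse had 33.8, 38.6 and 52.7 CPM, and withdrawn mice 1 to 5 had 39.9, 48.9, 33.2, 22.1 and 28.3 CPM. Withdrawn mice 3, 4 and 5 fell below the lowest naïve mouse and the other two lay inside the naïve range. The mean was 40.5 ± 7.36 CPM in naïve mice (SD, n = 6) and 34.5 ± 10.4 CPM in withdrawn mice (SD, n = 5), and the log2 fold change was -0.23 (SE 0.24, 95% interval -0.75 to 0.28, adjusted p = 0.904 by edgeR). These are also the 3 mice with conflicting labels, and without them the log2 fold change was 0.078. With the fibroblast marker score (the mean log2 CPM of the 10 fibroblast markers) as a covariate it was 0.070. Exons of the opposite-strand gene Gm16183 cover 435 bases of Cacna1a. Cacna1b (ENSMUSG00000004113, chr2:24603887-24763152, minus strand) encodes Cav2.2, the N type channel of presynaptic terminals that omega-conotoxin GVIA blocks. The lowest, median and highest naïve mouse had 17.9, 52.5 and 74.8 CPM, and withdrawn mice 1 to 5 had 52.9, 72.2, 54.6, 48.8 and 53.4 CPM. The withdrawn mice sat close together near the naïve median, with mouse 2 above the others, and the low naïve value was that of mouse 5. The log2 fold change was 0.12 (SE 0.29, 95% interval -0.51 to 0.74, adjusted p = 0.968 by edgeR), and without naïve mouse 5 it was -0.053.

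The R type gene had the most counts of the family and the lowest p. Cacna1e (ENSMUSG00000004110, chr1:154390731-154884501, minus strand) encodes Cav2.3, the R type channel found in dendrites, spines and some terminals, which resists the blockers of the other types. The lowest, median and highest naïve mouse had 117, 182 and 195 CPM, and withdrawn mice 1 to 5 had 116, 77.8, 168, 168 and 152 CPM. All 5 withdrawn mice were below the naïve median, and mice 1 and 2 were below the lowest naïve mouse. The mean was 170.4 ± 30.2 CPM in naïve mice (SD, n = 6) and 136 ± 39.02 CPM in withdrawn mice (SD, n = 5). The log2 fold change was -0.32 (SE 0.21, 95% interval -0.78 to 0.13), with an unadjusted p of 0.148 and an adjusted p of 0.820 from edgeR's quasi-likelihood test, the lowest of the 8 members. It was below 0 under all 24 alternatives. It shrank to -0.18 without withdrawn mouse 2 and to -0.26 without both that mouse and naïve mouse 5. Its size rose to -0.86 without the 3 mice with conflicting labels (unadjusted p = 0.00919, adjusted p = 0.679 by edgeR) and to -0.76 with the fibroblast score as a covariate (unadjusted p = 0.0124, adjusted p = 0.822 by edgeR). The first of these comparisons keeps withdrawn mice 1 and 2, which are the lowest of all 11 mice for Cacna1e and stand at opposite ends of the withdrawn group for fibroblast markers, at 1651 and 40.4 CPM. For the second, withdrawn mouse 2 was the only withdrawn mouse whose fibroblast sum lay inside the naïve range of 15.3 to 84.5 CPM. How far that value depends on mouse 2 was not tested.

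Of the T type genes, Cacna1g and Cacna1i were close to level, and Cacna1h was the least even member. Cacna1g (ENSMUSG00000020866, chr11:94408391-94474198, minus strand) encodes Cav3.1, the T type channel of thalamic relay burst firing, which is also found in cortex. The lowest, median and highest naïve mouse had 40.7, 69.1 and 76.6 CPM, and withdrawn mice 1 to 5 had 55.0, 104, 65.5, 60.9 and 68.1 CPM. Withdrawn mouse 2 was above every naïve mouse and the other 4 lay inside the naïve range. The log2 fold change was 0.17 (SE 0.22, 95% interval -0.31 to 0.65, adjusted p = 0.933 by edgeR), and -0.019 without withdrawn mouse 2. Cacna1i (ENSMUSG00000022416, chr15:80287238-80398279, plus strand) encodes Cav3.3, the T type channel that inactivates most slowly. The lowest, median and highest naïve mouse had 15, 25.1 and 44.1 CPM, and withdrawn mice 1 to 5 had 20.4, 45.2, 24.0, 17.2 and 35.8 CPM. Mouse 2 was again just above the naïve range, with the other 4 inside it. The log2 fold change of 0.06 (SE 0.36, 95% interval -0.71 to 0.84, adjusted p = 0.986 by edgeR) turned below 0, to between -0.16 and -0.023, when naïve mouse 2, 5 or 6 or withdrawn mouse 2 or 5 was left out.

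Cacna1h (ENSMUSG00000024112, chr17:25374285-25433783, minus strand) encodes Cav3.2, the T type channel best known from pain-sensing neurons, which nickel blocks at low concentration. The lowest, median and highest naïve mouse had 6.98, 23.8 and 31.6 CPM, and withdrawn mice 1 to 5 had 31.9, 0.560, 16.5, 9.71 and 9.41 CPM. Withdrawn mouse 1 was the highest of all 11 mice and withdrawn mouse 2 the lowest, with 5 counts in its library. The withdrawn values thus spanned a 57.0-fold range, with a coefficient of variation of 85.8%, against 40.3% for the median tested gene in that group. The mean was 21.5 ± 9.84 CPM in naïve mice (SD, n = 6) and 13.6 ± 11.7 CPM in withdrawn mice (SD, n = 5), and the log2 fold change was -0.66 (SE 0.67, 95% interval -2.09 to 0.78, adjusted p = 0.904 by edgeR). A log2 difference of up to -2.09 therefore remained inside the interval. The value was -0.36 without withdrawn mouse 2 and -1.25 without withdrawn mouse 1, the mouse with the highest fibroblast marker level. With the fibroblast score as a covariate it was -2.95 (unadjusted p = 0.00239, adjusted p = 0.687 by edgeR). Withdrawn mouse 2 was the only withdrawn mouse whose summed fibroblast level, 40.4 CPM, lay inside the naïve range. How far the value with this covariate depends on that mouse and its 5 counts was not tested. Exons of Tpsg1 on the other strand cover 158 bases of the gene.

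**Figure D2:**
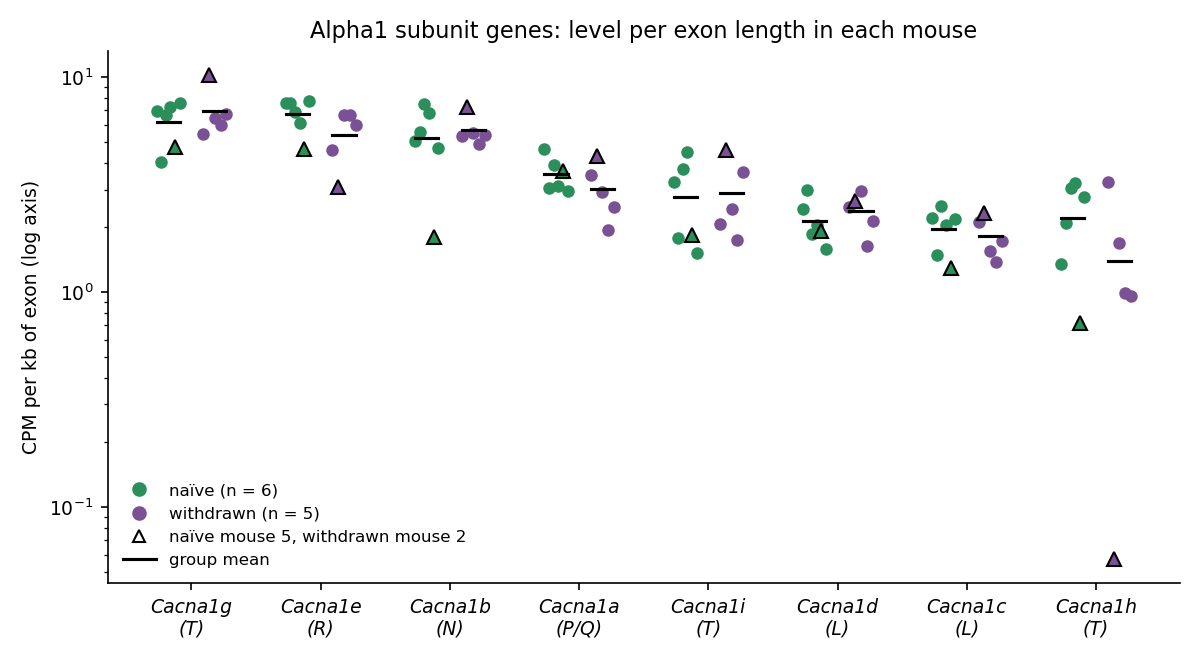
Level of each alpha1 gene in CPM per kb of exon (log axis) in every mouse, ordered by the mean over 11 mice, with naïve mice in green, withdrawn mice in purple and group means as lines. Triangles mark naïve mouse 5, lowest in its group for 4 of the 8 genes, and withdrawn mouse 2, highest in its group for 5 and lowest for 2. Withdrawn mouse 4, without a mark of its own, was lowest in its group for 5. The groups overlap for every gene, and the lowest point is Cacna1h in withdrawn mouse 2, at 0.0573 CPM per kb.

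Dividing the CPM by the length of all annotated exons put levels of different genes on 1 scale. On it Cacna1g led with a mean of 6.55 ± 1.63 CPM per kb (SD, n = 11 mice), followed by Cacna1e at 6.14 ± 1.47 and Cacna1b at 5.43 ± 1.54 CPM per kb. Their order was not kept from mouse to mouse: Cacna1g was above Cacna1e in 5 of 11 mice and Cacna1e above Cacna1b in 7 of 11. By this length a step followed, since Cacna1b was above Cacna1a in 10 of 11 mice. Cacna1a had 3.31 ± 0.78, Cacna1i 2.83 ± 1.15 and Cacna1d 2.25 ± 0.49 CPM per kb. Cacna1c, at 1.89 ± 0.42, and Cacna1h, at 1.84 ± 1.12 CPM per kb, closed the order and could not be separated, with Cacna1c above in 5 of 11 mice. The order depends on which length is used. The exons of Cacna1e, Cacna1c and Cacna1a add up to 25.2, 21.2 and 11.4 kb, and their longest transcripts measure 14.9, 13.2 and 7.93 kb. Per kb of the longest transcript Cacna1e was first, at 10.4 CPM per kb and in 10 of 11 mice, and Cacna1g second at 7.92 CPM per kb. Cacna1b had 5.54 and Cacna1a 4.77 CPM per kb, with Cacna1b above in 9 of 11 mice. Cacna1a was above the next gene, Cacna1c at 3.05 CPM per kb, in 11 of 11 mice. Cacna1h remained last at 2.18 CPM per kb.

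Summed by type, T type transcripts made up the largest mean share in both groups. The summed level of the 8 genes was 30.8 ± 5.75 CPM per kb (SD, n = 6) in naïve and 29.5 ± 3.32 CPM per kb (SD, n = 5) in withdrawn mice, with its lowest value in naïve mouse 5 (20.6 CPM per kb). T type genes held 36.0 ± 4.96% of that sum in naïve and 37.8 ± 3.44% in withdrawn mice (SD, n = 6 and 5, as for the shares that follow). The R type gene held 22.2 ± 3.46% and 18.8 ± 6.65%, the N type gene 16.4 ± 4.44% and 19.1 ± 1.17%, the L type genes 13.5 ± 1.81% and 14.1 ± 1.57%, and the P/Q type gene 11.9 ± 3.32% and 10.1 ± 2.13%. For every type the difference between the group means was smaller than the larger of the SDs, and the ranges overlapped. In withdrawn mouse 2 the R type share was 8.94% and the T type share 43.1%, the lowest and highest of all mice. In naïve mouse 5 the N type share was 8.75% and the P/Q type share 17.7%, again the lowest and highest. Within the T type, Cacna1g supplied 56.3% in naïve and 61.7% in withdrawn mice, Cacna1i 24.4% and 25.0%, and Cacna1h 19.3% and 13.3%, the last falling to 0.385% in withdrawn mouse 2. Within the L type, Cacna1d supplied 52.3% in naïve and 56.5% in withdrawn mice, and Cacna1c the rest. These shares also depend on the length used. Per kb of the longest transcript the T type held 31.4% in naïve and 33.7% in withdrawn mice, and the R type 28.2% and 24.3%. The L type then held 14.7% and 15.7%, the N type 12.7% and 15.1%, and the P/Q type 12.9% and 11.2%. By that length the R type exceeded the T type in naïve mouse 2 (33.6% against 23.9%) and withdrawn mouse 4 (33.5% against 30.3%). On that scale Cacna1c was above Cacna1d in naïve mice, at 3.15 against 2.79 CPM per kb, and below it in withdrawn mice, at 2.93 against 3.11 CPM per kb.

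**Figure D3:**
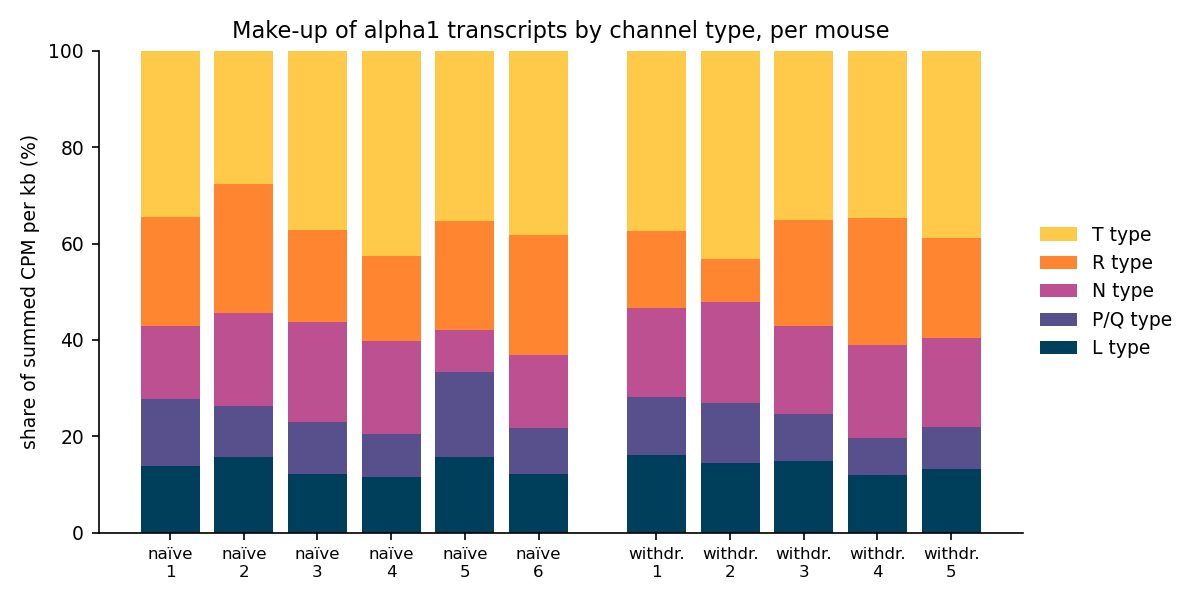
Share of the summed level (CPM per kb of exon, in percent) held by L, P/Q, N, R and T type alpha1 genes in each of the 6 naïve and 5 withdrawn mice, as stacked bars that reach 100%. T type genes form the largest block, 27.7% to 43.1% over the mice, and the R type block is thinnest in withdrawn mouse 2, at 8.94%.

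The members did not rise and fall as a block across mice. Over the 28 pairs of members, Pearson's r of log2 CPM across the 11 mice ran from -0.46 (Cacna1g with Cacna1h) to 0.74 (Cacna1e with Cacna1h), with a median of 0.062 and 17 of the 28 above 0. The values are descriptions, over mice of both groups that also differ in depth and cell make-up. Both extremes leaned on few mice, since the r of Cacna1g with Cacna1h was 0.47 without the 2 mice farthest from the median, and that of Cacna1e with Cacna1h was 0.58. The gene whose pattern was most like that of a member, among the genes tested and over the same 11 mice, was Kcnn1 for Cacna1h (r = 0.97, Spearman's rho 0.96, and 0.93 without 2 mice). Kcnn1 encodes an SK channel, a potassium channel that calcium opens. A link between Kcnn1 and Cacna1h was not tested. This gene and those that follow were picked for the highest r among all genes tested, so high values come with the choice. The closest genes to the L type members were Rock2 (r = 0.91) and Plcb1 (r = 0.90) for Cacna1c, and Aptx (r = 0.82) and Zfp692 (r = 0.81) for Cacna1d. Cwf19l1 (r = 0.93) and Tmem62 (r = 0.92) were closest to Cacna1a, Gm26782 (r = 0.97) and Pus7l (r = 0.96) to Cacna1b, and Cfap97 (r = 0.95) and Zfp961 (r = 0.94) to Cacna1e. Among T type members, Galnt17 (r = 0.92) and Gm13436 (r = 0.90) were closest to Cacna1g, Zc3h13 (r = 0.96) came second for Cacna1h, and Osbpl1a (r = 0.89) and Gm49284 (r = 0.88) were closest to Cacna1i. Without the 2 mice farthest from the median, the r of these 16 genes lay between 0.73 (Zc3h13) and 0.93 (Kcnn1), with 0.80 for Gm26782 and 0.78 for Pus7l.

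The alpha1 protein works with auxiliary subunits, intracellular regulators and anchors at the release site, and together with the 2 alpha1 genes outside the members they made a list of 34 genes, of which 26 could be tested. None met the thresholds in edgeR's test or in DESeq2's. At an unadjusted p under 0.05 edgeR found 3 of the 26, against 7.22% of all genes it tested, and DESeq2 found 2 of 33, against 6.24% of all genes it tested. The 3 were lower in withdrawn mice, as were 2.22% of all genes at that level. Those of edgeR were Cacng2 and the calmodulin genes Calm2 and Calm3, of which DESeq2 found all but Calm2. In all, 8 of the 26 were higher and 18 lower, with a median log2 fold change of -0.23, where 48.2% of tested genes were lower. The groups overlapped for all 26. Of the alpha1 genes outside the members, Cacna1s, the L type gene of skeletal muscle, had at most 2.57 CPM in naïve and 2.80 CPM in withdrawn mice, and neither it nor Cacna1f of the retina passed the filter.

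The beta subunits, which carry alpha1 to the membrane, were split into 1 higher and 3 lower of 4 tested. Cacnb4, the most abundant, had 125, 166 and 205 CPM in the lowest, median and highest naïve mouse and 169, 249.6, 181, 124 and 178 CPM in withdrawn mice 1 to 5. Mouse 2 was above and mouse 4 just below the naïve range, and the log2 fold change was 0.11 (SE 0.19, adjusted p = 0.950 by edgeR). Of the 4 alpha2delta subunits, which set the number of channels at the surface and bind gabapentin in the case of Cacna2d1, 2 were higher and 2 lower. Cacna2d1 had 66.8, 128 and 153 CPM in the lowest, median and highest naïve mouse and 97.4, 112, 110.1, 89.8 and 153.02 CPM in withdrawn mice 1 to 5. Mouse 5 was just above the naïve range and the others inside it, with a log2 fold change of -0.12 (SE 0.21, adjusted p = 0.956 by edgeR). The release site anchors, which hold channels near docked vesicles, had 2 higher and 4 lower of 6. Bsn, the scaffold bassoon, was the most abundant, with a log2 fold change of -0.34 (SE 0.26, adjusted p = 0.864 by edgeR), which was -0.15 without naïve mouse 1, -0.19 without withdrawn mouse 4 and -0.54 without withdrawn mouse 3.

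Cacng2 encodes stargazin, which belongs to the gamma subunit family but is best known for carrying AMPA receptors to synapses. It had 54.4, 69.0 and 86.2 CPM in the lowest, median and highest naïve mouse and 40.8, 48.2, 53.8, 35.3 and 65.1 CPM in withdrawn mice 1 to 5. All withdrawn mice except mouse 5 were below the naïve range, and the log2 fold change was -0.53 (SE 0.21, unadjusted p = 0.0242 and adjusted p = 0.563 by edgeR). Cacng3, another AMPA receptor partner and the most abundant of the 5 family members tested, had a log2 fold change of -0.34 (SE 0.21, adjusted p = 0.799 by edgeR).

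Calm2 and Calm3 encode the same protein, calmodulin, the calcium sensor bound to the tail of L, P/Q, N and R type channels. Calm2, the most abundant of the 7 intracellular regulators tested, of which 1 was higher and 6 lower, had 2850.5, 3241 and 6242 CPM in the lowest, median and highest naïve mouse and 2783, 2724, 2724, 2161 and 3309 CPM in withdrawn mice 1 to 5. Only withdrawn mouse 5 reached the naïve range, and the log2 fold change was -0.49 (SE 0.21, unadjusted p = 0.0385 and adjusted p = 0.651 by edgeR). The highest naïve value was that of mouse 5, without which the log2 fold change was -0.29 (unadjusted p = 0.0891 by edgeR). Calm3 had 523, 612 and 694 CPM in the lowest, median and highest naïve mouse and 449.8, 539, 583, 361 and 541 CPM in withdrawn mice 1 to 5. Withdrawn mice 1 and 4 were below the naïve range and the other 3 inside it, with a log2 fold change of -0.33 (SE 0.15, unadjusted p = 0.0437 and adjusted p = 0.676 by edgeR). Withdrawn mouse 4, with the highest share of reads outside exons and the lowest glutamatergic marker sum, was the lowest of all mice for both genes. Without that mouse 0 of the partner genes had an unadjusted p under 0.05, with log2 fold changes of -0.43 for Cacng2, -0.42 for Calm2 and -0.23 for Calm3. With the fibroblast score as a covariate they were -0.48, 0.055 and -0.069. Opposite-strand genes share exon bases with Cacnb4 (1433 bases) and Cacng2 (323 bases).

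**Figure D4:**
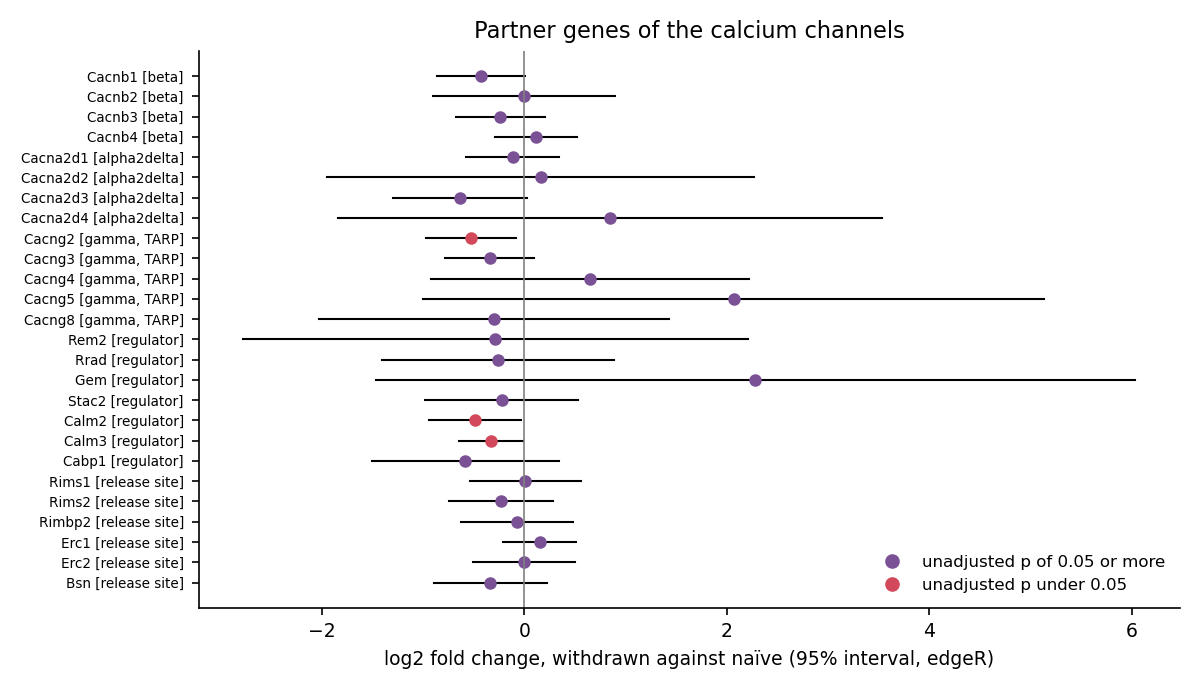
Log2 fold change in withdrawn against naïve mice (points) with 95% intervals from edgeR (lines) for the 26 tested partner genes, labelled by list. The 3 red points, Cacng2, Calm2 and Calm3, lie between -0.53 and -0.33 and are the genes with an unadjusted p under 0.05, none of which passed after adjustment.

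The directions of several member differences depended on the mice included or on the settings. The alternatives covered 24 other fits, among them other normalizations and tests, covariates and each mouse left out. Of the 191 values they gave for the members, 174 kept the direction reported and 17 turned. Cacna1d, Cacna1e and Cacna1h never turned. Cacna1i turned in 7 alternatives, Cacna1b in 5, Cacna1a and Cacna1g in 2 each and Cacna1c in 1. The lowest adjusted p of any member in any alternative was 0.581 (Cacna1e, with no filter on low counts). An unadjusted p under 0.05 was reached by Cacna1e in 2 alternatives and by Cacna1h in 1.

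**Figure D5:**
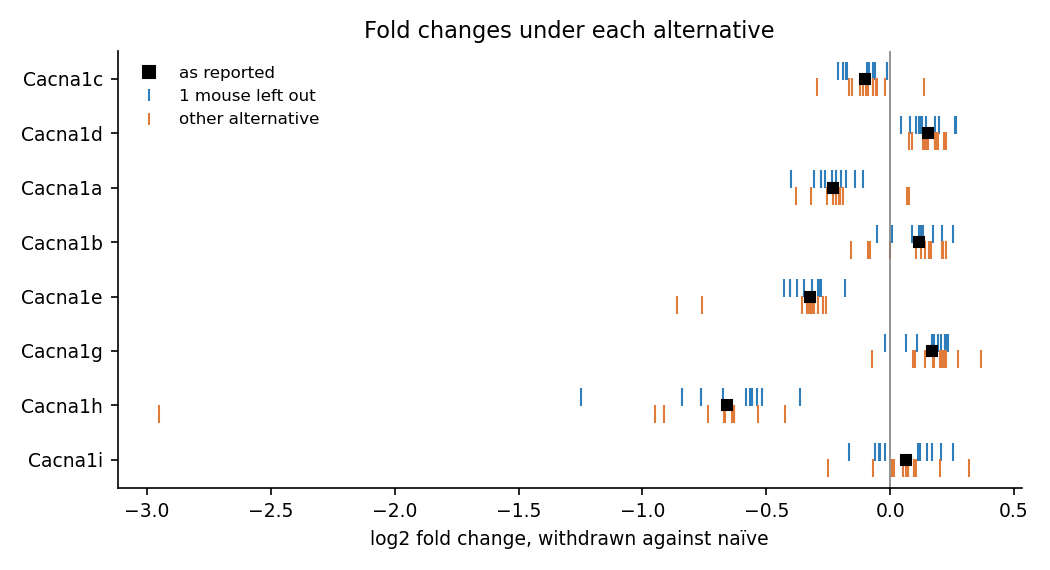
Log2 fold change of each alpha1 gene in withdrawn against naïve mice as reported (black squares), with 1 mouse left out (blue ticks) and under the other alternatives (orange ticks). Cacna1d stays above 0 and Cacna1e and Cacna1h below it throughout, and the tick farthest out is Cacna1h at -2.95, with the fibroblast marker score as a covariate.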

How the data were processed

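RNA from FACS-sorted mPFC CRF1+ neurons of 11 mice was made into libraries from amplified polyA cDNA. The authors used cutadapt to trim the reads, STAR to align them (GRCm38) and HTSeq to tally them over Ensembl genes. They deposited the tallies as whole-number counts for each mouse, with no normalization. The strand setting of the counting was not given in the sources used here. Reads that were not assigned to a single gene (18.9% to 58.0% of those tallied) were left out. Symbols, lengths and coordinates came from GENCODE M21.

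The groups were compared in edgeR 4.0.16 (R 4.3.3) over all genes, with TMM, filterByExpr (minimum count 10, minimum total 15) and the quasi-likelihood test. The SE is the log2 fold change divided by the square root of F. Log2 CPM used a prior count of 2. DESeq2 1.42.0, limma 3.58.1 (voom) and the other alternatives are given in the closing section. The scripts were tested on simulated data. At the dispersions of the genes, edgeR recovered 119 of 200 genes changed by 3 log2 units, with 1 false call. All 55 pairs of libraries differed beyond sampling noise (chi-square per degree of freedom at least 25.6).

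The members and lists were chosen with earlier results of these data known, and 1 listed partner gene is not reported here. Named genes are the 8 members, the most abundant gene of each partner list, each partner gene with an unadjusted p under 0.05 or with separated groups, and the 2 genes most correlated with each member. Chdh, Gm16183, Tpsg1 and Cacna1f were named for their overlap or family.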

Additional observations from a re-analysis of the deposited data

Results flagged for a closer look

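Within each group, the highest and lowest mouse were compared with the spread of the others (Dixon's test) for the log2 CPM of the members and named partner genes and for the marker scores. Of 50 sets tested 4 held a mouse far from the rest, where chance gives 2.5 (about 1 in 20). Cacna1b was low in naïve mouse 5, at 4.17 on the log2 CPM scale against a group median of 5.72, and high in withdrawn mouse 2, at 6.18 against 5.74. The glutamatergic marker score was low in naïve mouse 5, at 6.90 against 7.67, the mouse with low Cacna1b. The mural cell marker score was high in withdrawn mouse 4, at 3.83 against -0.28.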

How the results depend on the processing

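No member or partner gene was called under any of the 24 alternatives. Log2 fold changes turned direction as follows. With voom and quality weights Cacna1b was -0.088 and Cacnb4 -0.060. With the fibroblast score as a covariate Cacna1a was 0.070, Cacna1b -0.083 and Calm2 0.055. Only withdrawn mouse 2 had a summed fibroblast level inside the naïve range. How far the values with this covariate depend on that mouse was not tested. Without the 3 mice with conflicting labels Cacna1a was 0.078 and Cacna1c 0.13. In 2 alternatives chosen after seeing the data, Cacna1b was -1.93e-05 with the share of reads outside exons as a covariate, and Cacna1b was -0.16, Cacna1g -0.074, Cacna1i -0.25 and Cacnb4 -0.097 without both naïve mouse 5 and withdrawn mouse 2. The causes were not tested. With 1 mouse left out, values ran from -0.053 to 0.25 for Cacna1b, from -0.019 to 0.23 for Cacna1g, from -0.16 to 0.25 for Cacna1i and from -0.039 to 0.22 for Cacnb4, without a turn for the other members or the other 6 partner genes named and tested. Per kb of the longest transcript the levels moved to 4.77 for Cacna1a, 3.05 for Cacna1c, 2.94 for Cacna1d and 10.4 CPM per kb for Cacna1e.

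Naïve and withdrawn mice of 1 number are different animals, and the deviations of the 5 pairs correlated from -0.20 to 0.18. Differently numbered pairs were not compared, so these values cannot settle whether mice of 1 number were handled together. With a replicate block Cacna1i was -0.068 and 0 members were called. Cacna1h was not tested when 10 counts were asked of every mouse, since withdrawn mouse 2 had 5. Over all genes, edgeR called 1 gene and DESeq2 called 362, and without withdrawn mouse 2 edgeR called 193.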
